A study of Mus musculus with 45 samples.

Results

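The passage from K36M oocytes to the embryos made from them was followed in 11 of the 45 samples of the series. These were the 3 RNA-seq libraries of K36M fully grown oocytes (FGOs) and the 8 libraries of late two-cell embryos derived from K36M oocytes, chosen by the genotype and stage in their labels, with all 26214 genes of the deposited table. K36M females carried the H3f3b K36M-flox/+ allele together with Gdf9-Cre, a recombinase driven by an oocyte promoter, so that growing oocytes made histone H3.3 with methionine in place of lysine 36. By the study's immunostaining and ChIP-seq, such FGOs were depleted of H3K36me2, while their H3K36me3 changed little. Control females carried the same floxed allele without Cre, and 3 control FGO libraries and 7 control oocyte-derived two-cell embryos were used for comparison.

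FGOs came from females of 3 to 4 weeks on a hybrid C57BL/6 and 129 background, and each library was made from 5 pooled FGOs. Each two-cell library was 1 embryo from in vitro fertilization with JF-1 sperm, collected 31 to 32 h after fertilization. The second amplification step had 10 cycles for FGOs and 13 for embryos. The study lists fewer sequenced reads for each K36M embryo than for any K36M FGO library. For fertilization, the study describes females injected with CARD HyperOva and hCG, ovulated oocytes and culture of zygotes in KSOM medium. It names no hormone for FGOs, which were taken from punched ovaries. Stage, hormone treatment, meiotic maturation, culture, pooling, cycle number, sequencing depth and the presence of a paternal genome therefore changed together and cannot be told apart. The allele was heterozygous in the mothers, so embryos could inherit either H3f3b allele. The labels do not say whether libraries of a group came from separate females, so the p-values below measure the spread between these libraries.

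Fully grown oocytes store transcripts for meiosis, for the egg coat and for the first cleavage, and make almost no RNA. After fertilization the stored messages are deadenylated and degraded, and in the mouse the embryo's own genome becomes broadly active at the late two-cell stage. H3K36me2 is laid down mainly by NSD1 and NSD2, and H3K36me3 by SETD2, which marks transcribed gene bodies, and in oocytes these marks take part in setting the pattern of DNA methylation.

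Expression was measured as TPM, transcript levels scaled to gene length so that each library sums to 1000000. A TPM value is a share of a library, so a lower value cannot be told apart from a gain of other transcripts, and TPM does not give the reads behind a gene's value. The 16457 genes whose 2 stage means averaged at least 1 TPM were tested with limma on log2(TPM + 1), with Benjamini-Hochberg adjustment over all of them and a threshold of 0.05. Log2 differences below are two-cell minus FGO on this scale, on which changes of genes near 1 TPM or below come out too small. "Rose" and "fell" are used for genes past the threshold.

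The libraries matched their stage labels. The median log2(TPM + 1) of 7 oocyte markers was 10.62 to 10.84 in FGOs and 6.29 to 7.69 in embryos, and that of 8 two-cell markers was 0.16 to 0.96 in FGOs and 4.41 to 7.96 in embryos. Embryo 8 had the lowest two-cell marker level and embryo 1 the highest. FGO libraries had 13218 to 13682 genes at 1 TPM or more and embryos 9722 to 13303 (exact permutation test, two-sided, p = 0.0424, smallest possible 0.00606). That p was 0.111 without FGO library 1 or 3, and 0.05 to 0.0583 without embryo 1, 2, 4, 5 or 8. The part of sequencing depth in this was not tested. Embryos, sequenced less deeply, varied more than pools of FGOs. The median SD of a tested gene on the log2 scale was 0.23 among FGO libraries and 1.45 among embryos. Markers of other cells were measured in both stages. The summed TPM of 16 granulosa and cumulus markers was 64.7 to 82.2 in FGOs and 31.3 to 171.5 (median 60.1) in embryos. Of the 14 tested, 1 fell (Cyp19a1) and 0 rose. The sum was 13.2 to 20.8 and 4.14 to 112.3 for 12 theca and stroma markers (of 8 tested, Cyp11a1 fell). For 9 blood markers it was 7.22 to 11.5 and 0.243 to 150.9 (of 6 tested, Laptm5 fell, and 0 fell with any 1 FGO library left out). Hbb-bt was listed at 0 in every library. For 12 sperm markers the sum was 219.3 to 260.2 and 149.4 to 515.3 (of 5 tested, Prm2 and Akap4 fell, and Tnp2 was listed at 0 throughout). Most of the sperm sum was Odf2, at 168 to 203.6 TPM in FGOs and 112.7 to 503.2 TPM in embryos, and the blood marker Tyrobp was at 142.3 TPM in embryo 5 and listed at 0 in the other 10 libraries. Their part in the results was not tested.

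More transcripts fell than rose between the K36M FGO and the embryo. Of the 16457 genes tested, 1671 (10.2%) rose and 2822 (17.1%) fell, so that 62.8% of the called genes fell. The shares of 10.2% and 17.1% are the background for the counts of every gene list below. The change was at least 1 log2 unit in 1583 of the genes that rose and 2786 of those that fell, and at least 4 log2 units in 416 and 531. All 8 embryos lay above all 3 FGO libraries for 1566 genes (9.52%) and below them for 2980 (18.1%). Genes that rose held 9.52% ± 0.259 of TPM in FGOs (SD, n = 3) and 40.8% ± 2.51 in embryos (SD, n = 8). Genes that fell held 44.2% ± 0.808 and 9.45% ± 1.0, so the 2 sets nearly exchanged their share of the transcriptome. These shares describe genes chosen by the same values and carry no test.

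The turnover reached the top of the abundance order. Of the 500 genes with the highest mean TPM in FGOs, 310 fell and 42 rose, and of the 500 highest in embryos 311 rose and 37 fell, with 173 genes in both. Each set was chosen by its level in 1 of the stages compared, which favours these directions, so the counts are descriptions. Of the genes that rose, 73 were listed at 0 in every FGO library, and 298 of the genes that fell were listed at 0 in every embryo. Over all genes tested, the median log2 difference was -0.28, and it was -0.01 after quantile normalization and -0.40 after median-of-ratios scaling. The number that fell depended on how many FGO libraries were used. It was 1574, 1597 and 1522 with FGO library 1, 2 or 3 left out, and the number that rose was then 1140, 1170 and 1221. The fit gave a gene the same error variance in both stages. Fewer FGO libraries therefore widen the error whatever their values, here and for the calls of single genes below. With a weight for each stage, 3045 rose and 5210 fell. Without embryo 8 the counts were 1778 and 2848.

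**Figure D1:**
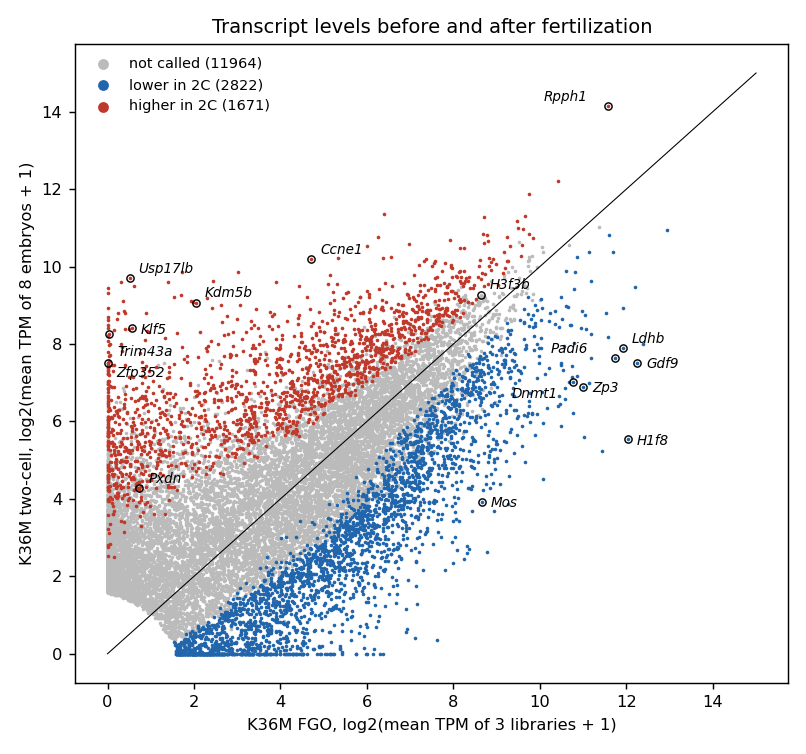
Mean level of each of the 16457 genes tested in the 3 K36M FGO libraries (horizontal axis) and the 8 K36M oocyte-derived two-cell embryos (vertical axis), both as log2(mean TPM + 1). Each point is a gene, red where it rose (1671), blue where it fell (2822) and grey where it was not called (11964). The line marks equal levels, and the circled genes are described in the text.

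Stretches upstream of 8 genes are shown because these genes mark both ends of the transition. Zp3, Bmp15, H1f8 and Oosp2 are oocyte transcripts that fell, and Zscan4d, Tdpoz4, Kdm5b and Ccne1 rose. Each is the 120 bases before the gene start in RefSeq on GRCm38.p6 (mm10), written 5′ to 3′ on the strand of the gene. The positions are chr5:135979985-135980104 on the plus strand for Zp3, chrX:6320725-6320844 on the minus strand for Bmp15, chr6:115944811-115944930 on the plus strand for H1f8 and chr19:11660560-11660679 on the minus strand for Oosp2. They are chr7:11166149-11166268 on the minus strand for Zscan4d, chr3:93796278-93796397 on the plus strand for Tdpoz4, chr1:134560058-134560177 on the plus strand for Kdm5b and chr7:38107491-38107610 on the minus strand for Ccne1. Capitals mark every match, on either strand, to 8 motifs. They are the TATA box (TATAAA), the GC box (GGGCGG), the CCAAT box (CCAAT) and the E-box (CANNTG). The others are the NOBOX element (TAATTG), the homeobox core bound by OTX and OBOX factors (GGATTA), the site of NR5A2 (CAAGGTCA) and the ETS core bound by GABPA (CCGGAA).
Zp3: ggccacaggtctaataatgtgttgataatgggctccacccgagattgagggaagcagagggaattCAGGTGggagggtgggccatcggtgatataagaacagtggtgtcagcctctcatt
Bmp15: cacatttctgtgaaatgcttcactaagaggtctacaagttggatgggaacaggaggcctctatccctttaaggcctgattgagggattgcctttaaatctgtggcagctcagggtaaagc
H1f8: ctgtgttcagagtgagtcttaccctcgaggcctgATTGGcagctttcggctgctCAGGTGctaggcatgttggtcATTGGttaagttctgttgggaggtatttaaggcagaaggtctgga
Oosp2: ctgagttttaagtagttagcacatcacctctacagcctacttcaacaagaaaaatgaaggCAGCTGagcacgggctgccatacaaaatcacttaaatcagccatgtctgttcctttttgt
Zscan4d: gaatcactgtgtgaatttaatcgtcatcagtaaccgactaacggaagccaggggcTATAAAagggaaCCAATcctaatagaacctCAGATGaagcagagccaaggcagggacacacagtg
Tdpoz4: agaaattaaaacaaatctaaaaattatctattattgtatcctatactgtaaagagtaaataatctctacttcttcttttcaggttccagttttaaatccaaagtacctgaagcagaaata
Kdm5b: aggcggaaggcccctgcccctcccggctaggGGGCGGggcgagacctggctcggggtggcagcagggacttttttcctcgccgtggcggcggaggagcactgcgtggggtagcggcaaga
Ccne1: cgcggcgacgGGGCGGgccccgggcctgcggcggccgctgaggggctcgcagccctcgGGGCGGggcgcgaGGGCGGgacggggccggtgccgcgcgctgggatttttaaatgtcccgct

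The 4 oocyte genes held E-boxes at -55 in Zp3, -66 in H1f8 and -60 in Oosp2, counted from the gene start to the first base of the motif, and no match in Bmp15. H1f8 also held CCAAT boxes at -86 and -45. Zscan4d held a TATA box at -65, a CCAAT box at -53 and an E-box at -35, and Tdpoz4 held no match. The Kdm5b stretch had a GC box at -89, and the Ccne1 stretch had 3, at -110, -62 and -49. The upstream sequences thus ran from GC-poor to GC-rich among genes that rose, with a GC content over 250 bases of 32.8% in Tdpoz4 and 76.0% in Ccne1.

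Over all promoters, the motifs were described for the 11663 protein-coding genes tested that had a RefSeq promoter row (80.5%), reading the 250 bases before the start. The GC box was in 64.6% of the 1276 genes that rose, 53.1% of the 2016 that fell and 54.7% of all those tested, and in 32.9% of all 27025 promoters of the table. The ETS core was in 24.6%, 20.9% and 20.4% (12.2% of the table), and the CCAAT box in 39.4%, 36.6% and 36.9% (34.5%). The E-box was in 52.6% of genes that rose, 62.7% of those that fell and 58.9% of all tested (66.0%). The TATA box was in 6.82%, 7.94% and 7.83% (13% of the table), the NOBOX element in 3.84%, 5.56% and 4.88% (7.34%), the homeobox core in 7.29%, 6.30% and 5.53% (6.38%) and the NR5A2 site in 1.25%, 1.14% and 1.01% (1.31%). A CpG ratio (observed over expected) under 0.4 was found in 14.7% of genes that rose, 25.2% of those that fell and 23.6% of all tested. Base composition moved with these shares (median GC content 60.4% in genes that rose and 58.0% in those that fell), its part in them was not tested, and they are descriptions with no test.

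Transcripts of the egg coat and of the growth factors that oocytes secrete fell almost as a whole. Of the 12 genes listed, 11 fell and 0 rose, with a median log2 difference of -4.67 against -0.28 over all genes. Their summed level was 13272 to 15120 TPM in FGOs and 579.2 to 2201 TPM in embryos. Gdf9 (chr11:53430774-53437904), a growth factor that acts on the surrounding granulosa cells, had 5000, 4625 and 5034 TPM in the FGO libraries. In embryos it had 70.1 to 271.3 TPM (median 214.8). The log2 difference was -4.89 (SE 0.41, adjusted p = 2.35e-06), with no overlap between stages. Zp3 (chr5:135980105-135988624), a glycoprotein of the zona pellucida, had 2057, 1914 and 2181 TPM in FGOs. It was at 61.7 to 204.9 TPM (median 107.7) in embryos, a log2 difference of -4.19 (SE 0.31, adjusted p = 6.67e-07). Zp2, another zona protein, fell by 4.69 on the log2 scale (adjusted p = 3.7e-06), and Bmp15, the partner of GDF9, had a log2 difference of -4.04 (adjusted p = 0.000945). With 1 FGO library left out, whichever it was, 8 of the 12 fell.

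Of 8 transcription factors that build the oocyte programme, 5 fell, 1 rose and 2 (Sohlh1 and Sohlh2, adjusted p = 0.651 and 0.417) were not called (median -2.59), where 17.1% of all genes fell and 10.2% rose, and with 1 FGO library left out 3 fell. Nobox, a homeobox factor of early oocytes, had 843.3, 1135 and 1240 TPM in FGOs and 3.11 to 40.1 TPM (median 23.4) in embryos (log2 difference -5.95, SE 0.71, adjusted p = 4.73e-05). Figla, the basic helix-loop-helix activator of the zona genes, had 112.2, 113.7 and 136.2 TPM in FGOs and was at 1.62 TPM or less in every embryo (adjusted p = 1.8e-05). Lhx8 fell as well, from 200.9 to 224.8 TPM in FGOs to 0 to 21.8 TPM in embryos (adjusted p = 0.00203). Tbpl2, the oocyte form of the TATA-binding protein, and Foxo3 fell by 3.76 and 0.98 (adjusted p = 0.0215 and 0.0134), and these 2 lost their calls whichever FGO library was left out (adjusted p = 0.0514 to 0.0914). The 1 that rose was Taf4b, a subunit of the TFIID complex. It had 20.6, 26.0 and 42.8 TPM in FGOs and 95.0 to 197.9 TPM (median 133.1) in embryos, and rose by 2.24 log2 units (SE 0.34, adjusted p = 0.000289).

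The subcortical maternal complex, a protein assembly beneath the egg surface that is needed for the first cleavages, fell in all 8 of its 8 listed genes (median -3.86), and this count was the same without any 1 of the 11 libraries. Summed TPM was 17609 to 19317 in FGOs and 1723 to 3514 in embryos. Padi6 (chr4:140727355-140742643), a peptidylarginine deiminase family member of the egg lattices, had 3439, 3504 and 3359 TPM in FGOs. The embryos had 111.2 to 313.1 TPM (median 184.8), a log2 difference of -4.18 (SE 0.27, adjusted p = 2.29e-07). Nlrp5, also known as Mater, fell by 3.07 (adjusted p = 3.72e-07), Khdc3 by 4.48 (adjusted p = 8.04e-05), and Tle6 by 3.79 (adjusted p = 9.62e-06), and Ooep had a log2 difference of -4.04 (adjusted p = 0.000119). Zbed3 had the highest mean of any gene in K36M FGOs, with 8694, 7413 and 7448 TPM, and it kept more of its level than the others. Its embryos had 1082 to 2665 TPM (median 1867), a log2 difference of -2.05 (SE 0.23, adjusted p = 3.04e-05).

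Of 19 genes of the meiotic cell cycle, 10 fell, 2 rose and 7 were not called (median -1.34), where 17.1% of all genes fell and 10.2% rose, and 6 to 7 fell with 1 FGO library left out. Bub1b, a spindle checkpoint kinase, had 1381, 1428 and 1372 TPM in FGOs and 48.8 to 143.2 TPM (median 95.2) in embryos (log2 difference -3.84, SE 0.31, adjusted p = 1.58e-06). Mos, the kinase that holds the egg in meiosis II, had 404.4, 364.9 and 442.8 TPM in FGOs. Embryos had 0 to 80.0 TPM with a median of 0.43 (adjusted p = 0.00207), and the 3 highest were embryos 3, 4 and 5 at 6.97, 25.6 and 80.0 TPM. Ccnb1, a mitotic and meiotic cyclin, fell by 1.34 (adjusted p = 0.000729), and Plat, the tissue plasminogen activator stored in oocytes, by 3.27 (adjusted p = 0.000847). The 2 that rose, a share near that of all genes, act in mitosis too. Cdc20, an activator of the anaphase-promoting complex, rose by 1.84 (adjusted p = 0.0061), and Cdk1 by 1.54 (adjusted p = 0.00383).

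Factors that store and translate maternal mRNA fell in 8 of 12 genes and rose in 0 (median -3.02). Zar1, an RNA-binding protein of the oocyte store, had 1887, 1748 and 1912 TPM in FGOs and 45.9 to 304.5 TPM (median 109.5) in embryos (log2 difference -3.92, SE 0.49, adjusted p = 6.81e-05). Cpeb1, which controls cytoplasmic polyadenylation, fell by 4.92 (adjusted p = 0.00131), Lsm14b, an RNA granule protein, by 3.29 (adjusted p = 6.58e-06) and Eif4e1b, an oocyte form of the cap-binding protein, by 2.09 (adjusted p = 0.00207). Of 17 genes of mRNA decay, 4 fell and 2 rose (median 0.23), which is near the 17.1% and 10.2% of all genes, and 2 to 3 fell and 1 to 2 rose with 1 FGO library left out. Btg4, the adaptor that brings the CCR4-NOT deadenylase to maternal messages, had 3416, 3414 and 3019 TPM in FGOs and 625.4 to 2845 TPM (median 1037) in embryos. It fell by 1.5 (SE 0.39, adjusted p = 0.0112), a call that was lost without FGO library 1 or 2 (adjusted p = 0.0603 and 0.061) and after quantile normalization (adjusted p = 0.0762). Pabpn1l, a poly(A)-binding protein of the same pathway, had 442.1 to 520.1 TPM in FGOs and 0 to 61.3 TPM (median 3.61) in embryos (adjusted p = 0.0011). Dcp1a, a decapping cofactor, fell by 3.58 (adjusted p = 6.85e-06), and Cnot6l, a deadenylase subunit, by 1.47 (adjusted p = 0.0389, and 0.0539 to 0.135 without any 1 FGO library or embryo 4, 6, 7 or 8). Cnot8, a catalytic subunit of CCR4-NOT, rose by 1.01 (adjusted p = 0.00369), and Tut4, a terminal uridylyltransferase, by 2.60 (adjusted p = 0.0121, and 0.0669 without FGO library 1).

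**Figure D2:**
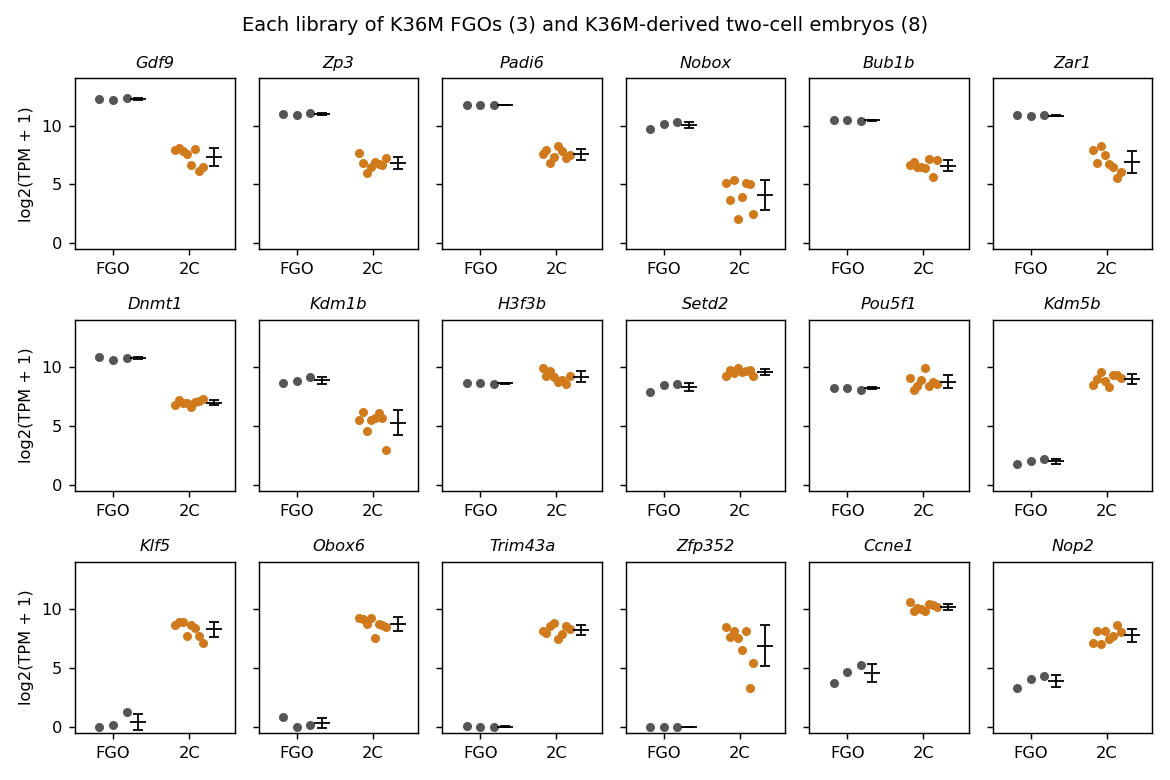
Level of 18 genes in each of the 3 K36M FGO libraries (grey) and 8 K36M oocyte-derived two-cell embryos (orange), as log2(TPM + 1). Points are libraries and bars show the mean ± SD. Gdf9, Zp3, Padi6, Nobox, Bub1b, Zar1, Dnmt1 and Kdm1b had all embryos below all FGO libraries, Setd2, Kdm5b, Klf5, Obox6, Trim43a, Zfp352, Ccne1 and Nop2 all embryos above them, and H3f3b and Pou5f1 overlapped.

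H3f3b (chr11:116021961-116026039), the gene that carries the K36M allele, had 399.3, 418.3 and 376.8 TPM in the K36M FGO libraries and 385.5 to 986 TPM (median 597) in embryos. The stages overlapped, and the log2 difference of 0.56 did not pass the test (SE 0.26, adjusted p = 0.131, exact permutation p = 0.0667), but passed with weights for each library or stage (adjusted p = 0.0129 and 0.00954). TPM per gene does not separate the mutant from the normal transcript, so these values do not check the genotype. Of the 10 genes for H3.3 and its chaperones, 2 rose and 0 fell (median -0.07), beside 10.2% and 17.1% of all genes, and 1 rose with any 1 FGO library left out. Dek, an H3.3 chaperone, rose from 314.3, 353.5 and 276.7 TPM to 508.9 to 1247 TPM (median 766.6), by 1.34 (adjusted p = 0.00201). Cabin1, of the HIRA complex, rose by 0.81 (adjusted p = 0.0436), a call that was lost with any 1 FGO library or embryo 3, 4, 5, 7 or 8 left out (adjusted p = 0.0524 to 0.162) and under both other scalings (adjusted p = 0.065 and 0.106). After quantile normalization 1 of the 10 fell.

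Among 10 enzymes that write or erase H3K36 methylation, 3 rose, 1 fell and 6 were not called (median 0.76), beside 10.2% and 17.1% of all genes. The writers of H3K36me2 showed no call. Nsd1 had 208.4, 169.4 and 173.1 TPM in FGOs and 214.9 to 386.5 TPM (median 273.4) in embryos, all above the FGO values, with a log2 difference of 0.58 (adjusted p = 0.0765). Nsd2 had 43.5, 51.7 and 45.5 TPM in FGOs and 27.7 to 66.4 TPM (median 50) in embryos (log2 difference -0.036, SE 0.40, adjusted p = 0.954). Setd2 (chr9:110532500-110618633), the writer of H3K36me3, rose from 239.4, 356.8 and 377.4 TPM to 601.1 to 977.7 TPM (median 794.6), by 1.28 (SE 0.20, adjusted p = 0.000403). Of the erasers, Kdm4c had 1.81, 0.919 and 1.92 TPM in FGOs and 25.3 to 190.1 TPM (median 94.0) in embryos (log2 difference 4.90, adjusted p = 9.44e-05). Kdm4a rose by 1.39 (adjusted p = 0.0038), and Kdm2b, which demethylates H3K36me2, fell by 1.59 (adjusted p = 0.00157). With weights estimated for each stage, 6 of the 10 rose, among them Nsd1 (adjusted p = 0.0156).

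Of 22 enzymes of H3K4, H3K9 and H3K27 methylation, 4 rose and 4 fell (median -0.44), beside 10.2% and 17.1% of all genes, so the share that fell was near that of all genes. With 1 FGO library left out 3 rose and 2 fell. Kdm5b (chr1:134560178-134632878), an eraser of H3K4me3, had 2.5, 3.21 and 3.59 TPM in FGOs. Every embryo lay between 325.5 and 756.6 TPM (median 542.4), so that Kdm5b rose by 6.99 log2 units (SE 0.30, adjusted p = 1.11e-08). Its GC box is shown above. Kdm1b, the oocyte eraser of H3K4 methylation needed for maternal imprints, went the other way. It had 399.8, 458.5 and 589 TPM in FGOs and 6.93 to 75.0 TPM (median 48.3) in embryos (log2 difference -3.60, SE 0.59, adjusted p = 0.000601). Suz12, a core subunit of the H3K27 methyltransferase PRC2, rose by 1.02 (adjusted p = 0.000172), and Kmt2b, an H3K4 methyltransferase active in oocytes, showed a difference of -0.47 that did not pass (adjusted p = 0.309). The other genes called were the H3K4 eraser Kdm5a, which rose by 3.04 (adjusted p = 6.01e-05), the H3K27 erasers Kdm6b and Kdm6a, which fell by 1.75 and 1.71 (adjusted p = 0.000651 and 0.0175), the H3K9 writer Setdb1, which fell by 1.76 (adjusted p = 0.0443), and the H3K4 writer Kmt2c, which rose by 0.56 (adjusted p = 0.0475). Whichever FGO library was left out, Kdm6a, Setdb1 and Kmt2c lost their calls, as did Setdb1 without embryo 4, 5, 6, 7 or 8 and Kmt2c without embryo 2, 3 or 4 and under both other scalings (adjusted p = 0.0519 to 0.178).

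Of 11 genes of the DNA methylation machinery of the oocyte, 6 fell and 1 rose (median -1.13), where 17.1% of all genes fell and 10.2% rose, and 4 to 5 fell with 1 FGO library left out. Dnmt1 (chr9:20907206-20959888), the maintenance methyltransferase, had 1843, 1620 and 1757 TPM in FGOs and 97.6 to 158.3 TPM (median 127.2) in embryos, with little spread between embryos. Its log2 difference was -3.76 (SE 0.21, adjusted p = 4.41e-08). Uhrf1, which recruits DNMT1, fell by 3.65 (adjusted p = 3.22e-06), and Zfp57, which protects imprints, by 2.28 (adjusted p = 3.4e-05). The genes of de novo methylation had smaller log2 differences. Dnmt3a had 84.6, 89.4 and 98.9 TPM in FGOs and 23.8 to 68.1 TPM (median 39.3) in embryos, and fell by 1.13 (adjusted p = 0.0427). That call was lost when any 1 FGO library or embryo 2, 6 or 7 was left out (adjusted p = 0.0508 to 0.144). Dnmt3l, its cofactor, had 122, 144.1 and 116.4 TPM and 22.2 to 105.1 TPM (median 46.1), all embryos below all FGOs, with a log2 difference of -1.44 just outside the threshold (adjusted p = 0.055). It passed with a mean of at least 5 TPM, under both other scalings, with weights and without embryo 3 or 5 (adjusted p = 0.000821 to 0.0492). The TET dioxygenases oxidize methylcytosine. Tet3, the oocyte form, fell by 3.39 (adjusted p = 1.59e-06), and Tet1 rose by 3.85 from 0.673 to 1.72 TPM in FGOs to 12.4 to 74.0 TPM in embryos (adjusted p = 0.000873). Dppa3, also called Stella, which shields the maternal genome from demethylation, stayed abundant, with 3445, 3081 and 2729 TPM in FGOs and 1116 to 2659 TPM (median 1768) in embryos. It fell by 0.82 (adjusted p = 0.0105), a call that was lost without FGO library 1 or 2 (adjusted p = 0.0577 to 0.0789), after quantile normalization (adjusted p = 0.344) and without the mean-variance trend (adjusted p = 0.124).

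Genes of the first zygotic wave, which are known from two-cell embryos and from two-cell-like cells, rose in 21 of the 28 members tested and fell in 1 (median 5.37), where 10.2% of all genes rose. With 1 FGO library left out 18 rose. Their summed level was 2464 to 2598 TPM in FGOs and 3992 to 9330 TPM in embryos, and 12 of the 30 members in the table were listed at 0 in all FGO libraries. Several families here are near-identical copies, so reads could be split between members and single values are uncertain. Zfp352 (chr4:90218820-90225687), a zinc finger gene, was listed at 0 in all FGO libraries and had 8.98 to 354.5 TPM (median 193.5) in embryos (adjusted p = 0.000135). Usp17lb (chr7:104840257-104842583), of a family of ubiquitin-specific proteases, had 0.147, 0.75 and 0.378 TPM in FGOs and 322.4 to 1589 TPM (median 674.4) in embryos. It rose by 9.03 log2 units (SE 0.46, adjusted p = 2.67e-08). Tdpoz4, of the TD and POZ domain family, was listed at 0 in all FGO libraries and had 68.2 to 471.6 TPM (median 263.6) in embryos (adjusted p = 3.86e-07). Trim43a, a tripartite motif gene, had 0.057, 0 and 0 TPM and 171.9 to 440.4 TPM (median 301.5) in embryos (adjusted p = 1.17e-08).

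The Zscan4 genes, zinc finger factors known for bursts of expression, varied between embryos. Zscan4d had 3.93, 1.86 and 3.65 TPM in FGOs and 5.86 to 217.9 TPM (median 99.6) in embryos, and rose by 4.24 (SE 0.83, adjusted p = 0.00207). Zscan4c rose by 3.90 (adjusted p = 0.0055). Zscan4a, at 0.636 to 111.9 TPM in embryos (adjusted p = 0.0154), and Zscan4f, listed at 0 in every FGO library and at 0.262 to 85.8 TPM in embryos (adjusted p = 0.0244), lost their calls whichever FGO library was left out (adjusted p = 0.0624 to 0.0654 and 0.0905 to 0.0927). Dux, the factor at the head of this programme, was listed at 0 in all FGO libraries and had 0 to 25.9 TPM (median 1.15) in embryos, which did not pass the test (adjusted p = 0.257) except with weights for each library or stage (adjusted p = 0.0319 and 0.0295). Tcstv1 overlapped, with 34.3, 23.1 and 43.8 TPM in FGOs and 2.73 to 530.7 TPM (median 110.5) in embryos (adjusted p = 0.377), as did Tcstv3 (adjusted p = 0.0833). Tcstv1 passed with library weights and without embryo 5 (adjusted p = 0.027 and 0.0315), and Tcstv3 after quantile normalization, with weights and without embryo 2 or 8 (adjusted p = 0.000523 to 0.0495). The 1 member that fell was Khdc1b, with 1475, 1621 and 1601 TPM in FGOs and 644 to 1307 TPM (median 919.8) in embryos. Its difference of -0.76 (adjusted p = 0.00819) was lost without FGO library 2 or 3 (adjusted p = 0.0517 to 0.0542), after quantile normalization (adjusted p = 0.103) and without the mean-variance trend (adjusted p = 0.133).

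The Obox homeobox genes, a rodent family on chromosome 7, changed members. Of 6 tested, 4 fell and 2 rose. Obox2 had 1683, 1307 and 1263 TPM in FGOs and 32.2 to 229 TPM (median 77.2) in embryos (log2 difference -4.26, adjusted p = 3.34e-05), and Obox1 and Obox5 fell by 4.03 and 2.17 (adjusted p = 0.000747 and 0.00145). Obox6 had 0.807, 0 and 0.145 TPM in FGOs and 182 to 618.1 TPM (median 418) in embryos, a rise of 8.38 (SE 0.40, adjusted p = 2.01e-08). Obox7 fell by 3.14 (adjusted p = 0.0461), a call lost with any 1 FGO library or embryo 3, 4, 5, 6 or 8 left out (adjusted p = 0.0518 to 0.166). Obox3 rose by 7.58 from at most 0.103 TPM (adjusted p = 7.33e-08). The homeobox core GGATTA, which OBOX factors bind, was in 7.29% of the promoters of genes that rose and 6.30% of those that fell. As given above, it was in 5.53% of all tested.

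Factors linked to genome activation and pluripotency rose in 10 of 20 genes and fell in 2 (median 1.22), beside 10.2% and 17.1% of all genes. Klf5, a Kruppel-like activator of the early embryo, had 0, 0.096 and 1.35 TPM in FGOs and 141 to 483.5 TPM (median 377.5) in embryos (log2 difference 7.83, SE 0.46, adjusted p = 8.73e-08). Klf4, of the same family, rose by 4.86 from 8.05 to 12.9 TPM (adjusted p = 8.24e-07). Gabpa, an ETS factor, rose by 5.69 from 4.38 to 11.8 TPM to 210.2 to 527.9 TPM (SE 0.36, adjusted p = 2.03e-07), and Dppa4, a DNA-binding factor of pluripotent cells, by 4.52 (adjusted p = 2.97e-07). The 2 that fell were Nfya, a subunit of the CCAAT-binding factor NF-Y, by 2.08 (adjusted p = 0.00149) and Sall4, a zinc finger factor that oocytes also store, by 1.44 (adjusted p = 0.00157). Pou5f1, or Oct4, was present in both stages, at 309.1, 310 and 276.9 TPM in FGOs and 273.9 to 978.5 TPM (median 405.4) in embryos, with no call (log2 difference 0.56, adjusted p = 0.209) except with weights for each library or stage (adjusted p = 0.0206 and 0.0244).

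**Figure D3:**
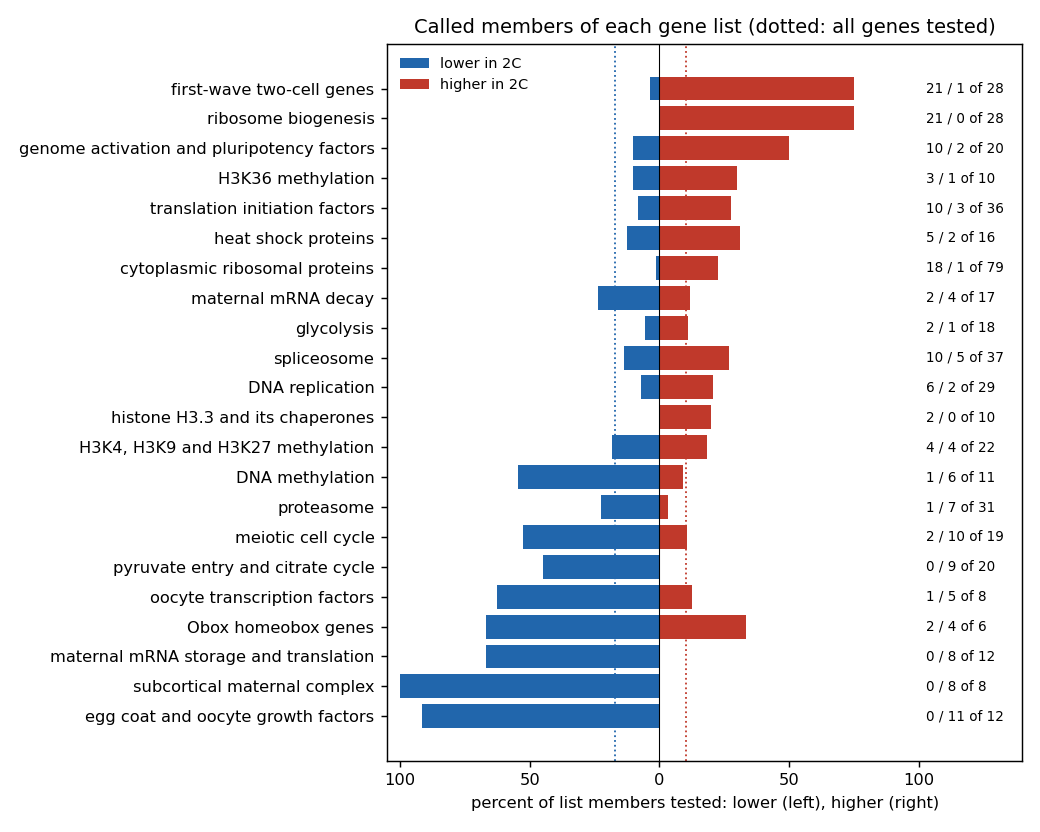
Percent of the tested members of 22 gene lists that fell (blue, left) or rose (red, right) from K36M FGO to two-cell embryo, with the counts that rose and fell of the number tested at the right. The dotted lines mark the shares over all genes tested, 17.1% falling and 10.2% rising. Lists are ordered by their median log2 difference, from first-wave two-cell genes at the top to egg coat and growth factor genes at the bottom.

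The machinery that makes ribosomes rose broadly. Of 28 ribosome biogenesis genes, 21 rose and 0 fell (median 1.79), with 17 to 19 rising when 1 FGO library was left out, and summed TPM went from 2973 to 3241 in FGOs to 6847 to 12841 in embryos. Nop2, an rRNA methyltransferase of the nucleolus, had 8.83, 16.2 and 19.1 TPM in FGOs and 131.5 to 399.3 TPM (median 237.1) in embryos (log2 difference 3.88, SE 0.39, adjusted p = 1.31e-05). Rrp9, of the U3 particle that processes rRNA, rose by 4.13 (adjusted p = 2.05e-06), Fbl, the nucleolar methyltransferase fibrillarin, by 3.35 (adjusted p = 6.81e-05) and Npm1, nucleophosmin, which FGOs already held at 601.7 to 677.4 TPM, by 1.17 (adjusted p = 0.00219). Rn45s, the annotated 45S precursor rRNA, had 92.4, 41.3 and 114 TPM in FGOs and 390.2 to 3887 TPM (median 3008) in embryos (adjusted p = 0.000126). The authors removed reads of rRNA, so this level is what was left after that step.

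Of 79 genes for ribosomal proteins, 18 rose, 1 fell and 60 were not called (median 0.36), beside 10.2% and 17.1% of all genes, and 11 to 13 rose with 1 FGO library left out. Their summed level nevertheless went from 10416 to 11545 TPM in FGOs to 17131 to 26839 TPM in embryos. Rplp2, a protein of the ribosomal stalk, had 812.8, 897.6 and 720.7 TPM in FGOs and 1712 to 3626 TPM (median 2250) in embryos (log2 difference 1.59, adjusted p = 0.000422), and Rpl41 rose by 2.77 (adjusted p = 3.07e-05). Rpl17 was the 1 that fell, from 136.2 to 152.5 TPM to 0 to 65.5 TPM (adjusted p = 0.0314), and it lost the call without any 1 FGO library or without embryo 7 (adjusted p = 0.0501 to 0.116). Among 36 translation initiation factors 10 rose and 3 fell (median 0.53), beside 10.2% and 17.1% of all genes, and 7 rose and 0 fell with 1 FGO library left out. Eif3a, a scaffold of the EIF3 complex, rose from 146.9, 212.3 and 212.7 TPM to 541.6 to 1799 TPM (median 1177), by 2.46 (adjusted p = 0.000196), and Eif4g1 by 1.82 (adjusted p = 4.81e-05). Those that fell were Eif3d by 2.70, Eif3k by 2.47 and Eif1ax by 2.11 (adjusted p = 0.0483, 0.0297 and 0.0445). These 3 lost their calls whichever FGO library was left out, Eif3d also without embryo 1, 3, 5 or 6 and Eif1ax without embryo 1 or 2 (adjusted p = 0.0507 to 0.149).

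Of 20 genes of pyruvate entry and the citrate cycle, 9 fell, 0 rose and 11 were not called (median -1.51), beside 17.1% and 10.2% of all genes, with 4 to 5 falling when 1 FGO library was left out. After quantile normalization 10 fell and 2 rose, and with a weight for each stage 12 fell and 2 rose. Dld, a subunit shared by the pyruvate and oxoglutarate dehydrogenases, had 335.2, 353 and 338.1 TPM in FGOs and 8.41 to 102.1 TPM (median 43.3) in embryos (log2 difference -3.22, adjusted p = 0.00355), and Sdhb, of succinate dehydrogenase, had 82.5 to 98.6 TPM in FGOs and 0 to 19.5 TPM in embryos (adjusted p = 0.00229). Suclg1, of succinyl-CoA ligase, had 24.2 to 35.9 TPM in FGOs and was listed at 0 in every embryo except embryo 7, at 1.12 TPM (adjusted p = 3.45e-05). Glycolysis genes were mostly not called, with 2 up, 1 down and 15 of 18 without a call (median 0.20). The share that rose was near the 10.2% of all genes, and 4 rose after quantile normalization (median 0.49) and 5 with a weight for each stage. The summed level of that list nevertheless went from 4156 to 4670 TPM to 718.3 to 1478 TPM, and most of the FGO sum was 1 gene. Ldhb, the lactate dehydrogenase subunit of the oocyte, had 4078, 3654 and 3843 TPM in FGOs and 161.6 to 464.8 TPM (median 213.3) in embryos, and fell by 4.10 (SE 0.27, adjusted p = 3.07e-07). The glucose transporter Slc2a3 rose by 4.91 from at most 0.564 TPM in FGOs to 11.3 to 84.8 TPM in embryos (adjusted p = 0.000217), and Hk1, hexokinase 1, by 3.44 (adjusted p = 0.0141, and 0.0731 and 0.0567 without FGO library 2 or 3).

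Among 29 genes of DNA replication 6 rose and 2 fell, beside 10.2% and 17.1% of all genes, and 4 rose with 1 FGO library left out. Their median of 0.06 was -0.11 under median-of-ratios scaling and -0.01 after quantile normalization. Ccne1 (chr7:38097984-38107490), the cyclin of S phase entry whose upstream stretch held 3 GC boxes, had 12.5, 24.2 and 38.5 TPM in FGOs and 943.3 to 1573 TPM (median 1129) in embryos. It rose by 5.61 (SE 0.28, adjusted p = 2.67e-08). Cdc45, of the replicative helicase, rose by 2.18 (adjusted p = 0.00397), although embryo 1 had 71.4 TPM where the FGO libraries had 58.4 to 67.4. The 2 that fell were Orc5, of the origin recognition complex, by 5.17 (adjusted p = 0.0158) and the initiation factor Mcm10 by 2.15 (adjusted p = 0.0129). Orc5 lost its call without any 1 FGO library and Mcm10 without FGO library 2 or 3 (adjusted p = 0.0599 to 0.0756). Heat shock proteins went both ways, with 5 of 16 up and 2 down (median 0.42). Hspa5, the chaperone of the endoplasmic reticulum, had 425.8, 419.7 and 384.6 TPM in FGOs and 1446 to 2190 TPM (median 1881) in embryos, a rise of 2.15 with a narrow error (SE 0.13, adjusted p = 1.13e-07). The cytosolic HSP90 genes exchanged. Hsp90aa1 fell by 2.77 (adjusted p = 3.4e-06), and Hsp90ab1 rose by 1.46 (adjusted p = 8.62e-05). Of the HSP70 genes, Hspa1a, Hspa1b and Hspa2 rose by 4.72, 2.85 and 3.93 (adjusted p = 0.000129, 0.00182 and 0.000231), and Hspa8, the constitutive form, fell by 0.92 (adjusted p = 0.00962, and 0.055 and 0.0507 without FGO library 2 or 3).

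In the spliceosome list 10 of 37 rose and 5 fell (median 0.20), beside 10.2% and 17.1% of all genes, and 1 to 2 fell with 1 FGO library left out. Srsf5, a splicing activator, rose by 2.75 (adjusted p = 1.35e-05), and Eftud2, a GTPase of the U5 particle, fell from 96.3 to 139.4 TPM to 0 to 21.4 TPM (adjusted p = 0.00269). Sf3a2, Sf3b3, Snrpb2 and Prpf8 fell by 3.41, 1.99, 1.67 and 1.29 (adjusted p = 0.0149, 0.0418, 0.012 and 0.0212). These 4 lost their calls with 1 FGO library left out (any of the 3, but only 1 or 2 for Snrpb2), and Sf3b3 also without embryo 1, 2, 3 or 7 (adjusted p = 0.052 to 0.137). Of 31 proteasome genes 1 rose and 7 fell (median -1.14), beside 10.2% and 17.1% of all genes, but only 1 to 2 fell with 1 FGO library left out, and 20 fell when a weight was estimated for each stage. Psma5, of the core particle, had 63.7 to 85.3 TPM in FGOs and 0 to 24.0 TPM (median 0) in embryos (adjusted p = 0.00122). The 1 that rose, Psmd7, by 1.38 (adjusted p = 0.0188), lost its call without FGO library 1 or 2 (adjusted p = 0.122 and 0.0629).

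The most abundant K36M FGO transcripts were Zbed3, Elobl, Gdf9, Hsp90aa1, H1f8, Skp1, Ldhb, Padi6, Btg4 and Dppa3, and all 10 fell, Btg4 and Dppa3 with the losses of the call given above. These 10 were chosen by their FGO level, which favours a fall, so the count is a description. H1f8, the linker histone of the oocyte, had 4550, 3932 and 4134 TPM in FGOs and 11.1 to 95.3 TPM (median 47.0) in embryos, and fell by 6.75 (SE 0.53, adjusted p = 1.42e-06). The somatic linker histone gene H1f1 rose over the same interval, from 1638, 1496 and 1004 TPM to 3218 to 7249 TPM (median 4457), by 1.75 (SE 0.25, adjusted p = 0.000222). H1f1 was second among embryo transcripts after Rpph1, the RNA subunit of RNase P, which had 3819, 2592 and 2800 TPM in FGOs and 8207 to 26319 TPM (median 18164) in embryos (log2 difference 2.47, adjusted p = 6.2e-05). Then came Ccdc6, Rn45s, Rplp2, Ybx1, Bmi1, C86187, Hsp90ab1 and Calm2. Ybx1, an mRNA-binding cold shock protein, rose by 2.49 (adjusted p = 3.58e-05), and Bmi1, a Polycomb protein, by 1.67 (adjusted p = 0.000241). C86187 was the only 1 of these 10 embryo transcripts without a call (log2 difference -0.54, adjusted p = 0.351). Their choice by embryo level favours a rise in the same way.

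The 12 largest rises without overlap between stages were in Gm4971, Rprl3, Rprl2, Usp17lb, Gm11517, Calcoco2, Gm15455, Gm11544, Btbd18, Mt2, Gm12789 and B020004C17Rik. Of these, Gm4971, Rprl3, Calcoco2, Gm11544, Gm12789 and B020004C17Rik were listed at 0 in all 3 FGO libraries. Calcoco2, an autophagy receptor, had 183.5 to 921 TPM (median 377.2) in embryos (adjusted p = 6.36e-08). Btbd18, a BTB domain protein known from the male germ line, had 0.677, 0.023 and 0.221 TPM in FGOs and 345.4 to 648.3 TPM (median 437.2) in embryos (log2 difference 8.47, SE 0.32, adjusted p = 5.31e-09). Mt2, a metal-binding metallothionein, was listed at 0, 0 and 0.524 TPM and had 237.6 to 833.9 TPM (median 440) in embryos (adjusted p = 2.92e-08). Its neighbour on chromosome 8, Mt1, had 0.628, 0.152 and 4.12 TPM and 89.8 to 1087 TPM (adjusted p = 2.33e-06). Rprl2 and Rprl3 are short RNase P RNA copies similar to Rpph1, so their reads could be shared with it.

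The 12 largest falls without overlap between stages were in Ftdc1, Mir7035, Ftdc2, Tm2d1, Oosp2, Ndufc2, Pabpn1l, Mos, H1f8, Uqcc2, Cenpm and Igbp1. Ftdc1 and Ftdc2, ferritin domain genes on chromosome 16, had 1941 to 2190 TPM and 2326 to 3088 TPM in FGOs. In embryos they had 0 to 251.6 TPM (median 1.63) and 0 to 109.3 TPM (median 18.1), with adjusted p = 0.00162 and 0.000699. Tm2d1, a transmembrane protein, went from 169.8 to 215.5 TPM to at most 1.19 TPM in any embryo (adjusted p = 2.91e-06). Ndufc2, of respiratory complex I, went from 127 to 149.6 TPM to at most 1.81 TPM (adjusted p = 6.85e-06), and Uqcc2, an assembly factor of complex III, from 250 to 309.3 TPM to 0 to 25.3 TPM (adjusted p = 0.000589). Oosp2, a secreted oocyte protein, had 517.3, 443.9 and 433 TPM in FGOs and 0 to 148 TPM (median 0) in embryos (adjusted p = 0.00353).

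**Figure D4:**
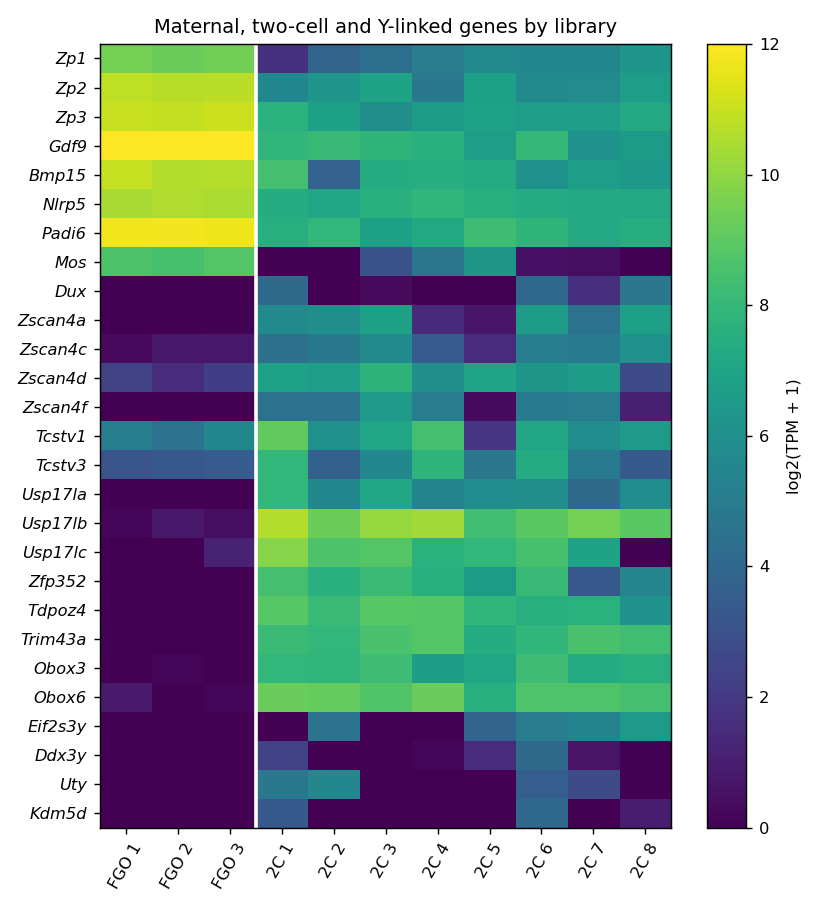
Level of 27 genes, as log2(TPM + 1) on the colour scale, in each of the 3 K36M FGO libraries and 8 K36M oocyte-derived two-cell embryos (columns). Oocyte genes are at the top, two-cell genes in the middle and 4 Y-linked genes at the bottom. The two-cell rows differ between embryos, with Usp17lc listed at 0 in embryo 8 and Zscan4f near 0 in embryo 5, while Trim43a and Obox6 were high in all 8.

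Single embryos differed from one another in both the maternal and the zygotic part. Among called genes with a mean of at least 20 TPM in embryos, the highest coefficients of variation of genes that rose were 220% for Zfp239, 184% for Hsd17b14, 155% for Flt3l, 143% for Snord55 and 140% for Flvcr2. Zfp239, a zinc finger gene, had a median of 9.06 TPM and reached 225.3 TPM in embryo 8. Among genes that fell, they were 283% for Mir7672, 280% for Mir7657, 272% for Psmb3, 219% for Oosp2 and 204% for Cep44. Psmb3, a core proteasome subunit, had 57.6, 40.5 and 59.6 TPM in FGOs and a median of 0.496 TPM in embryos, but 173.7 TPM in embryo 4. The calls of Zfp239, Hsd17b14, Flt3l, Snord55, Mir7672, Mir7657, Psmb3 and Cep44 were each lost whichever FGO library was left out. Without 1 embryo, calls were also lost for Zfp239 (embryo 1, 5 or 7), Snord55 (embryo 1), Psmb3 (embryo 1, 2, 6, 7 or 8) and Cep44 (embryo 3 or 7), and the adjusted p then ranged over all these fits from 0.0507 to 0.156.

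Y-linked genes were listed at 0 in all 3 FGO libraries, and their summed level was 0 to 106.8 TPM (median 62.8) in embryos. None of the 6 tested was called by limma (Eif2s3y and Usp9y had unadjusted p of 0.0483 and 0.037), and 3 of the 6 rose when a weight was estimated for each stage. Eif2s3y, the Y-linked copy of a translation initiation factor, was above 0 in embryos 2, 5, 6, 7 and 8, and Uty, a histone demethylase family member, in embryos 1, 2, 6 and 7. Of 583 X-linked genes tested, 9.78% rose and 17.3% fell, beside 10.2% and 17.1% of 15853 autosomal genes.

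The same transition in control oocytes and embryos gave 2555 genes that rose (15.3% of 16723 tested) and 2781 that fell (16.6%). No library was shared between the genotypes. Over the 15069 genes tested in both, 87.7% changed in the same direction, and the log2 differences correlated with Pearson's r = 0.914 and Spearman's rho = 0.907. Genes are not independent replicates, so these values describe the 2 fits. Of the genes that rose in K36M, 1442 also rose in control (86.3% of the K36M and 56.4% of the control genes). Of those that fell, 1857 also fell in control (65.8% and 66.8%), and 0 genes were called in opposite directions. Of the 4447 genes called in K36M and tested in control, 4410 changed in the same direction. The gene groups whose medians lay furthest apart were the egg coat and growth factors (-3.84 in control and -4.67 in K36M), the genome activation and pluripotency factors (2.00 and 1.22) and first-wave genes (4.67 and 5.37). They were -4.14 and -3.86 for the subcortical maternal complex, 1.55 and 1.79 for ribosome biogenesis and 0.39 and -0.07 for H3.3 and its chaperones, and differences between these medians were not tested. Gdf9 changed by -4.40 in control, Dnmt1 by -4.04, Zp3 by -5.37, Kdm5b by 7.11, Klf5 by 8.22 and Ccne1 by 6.11.

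**Figure D5:**
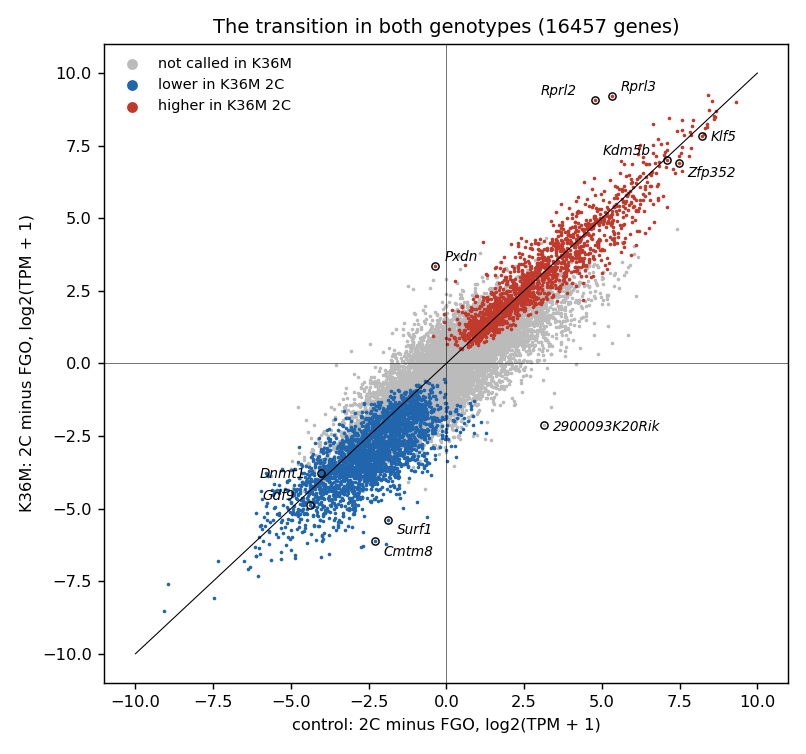
Log2(TPM + 1) difference, two-cell minus FGO, in control (horizontal axis, 3 FGO libraries and 7 embryos) and in K36M (vertical axis, 3 FGO libraries and 8 embryos) for the 16457 genes tested in K36M. Each point is a gene, coloured by its K36M call, and the line marks equal differences. Most called genes lie near the line, and Pxdn, Rprl2, Rprl3, Surf1, Cmtm8 and 2900093K20Rik lie away from it.

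Whether the transition differed between genotypes was tested as the interaction of stage and genotype over 21 libraries. Of 16936 genes, 1 passed (0.0059%) and 214 had an unadjusted p under 0.05 (1.26%). Of these 214, 42 had a larger and 172 a smaller two-cell minus FGO difference in K36M. That share is lower than the 0.05 that chance alone would give. With a weight for each library or stage, 1769 and 1478 genes had an unadjusted p under 0.05. The main fit used the same error variance for both stages, although embryos varied more than FGOs. The small number of calls therefore does not show that the transitions were alike. The median interaction over all genes was -0.27, against -0.07 after quantile normalization and -0.15 under median-of-ratios scaling. K36M embryos had 9722 to 13303 genes at 1 TPM or more and control embryos 10774 to 15557, and the part of this in the interaction was not tested. The median standard error of the interaction was 1.16 log2 units, so differences up to that size were within the error for a typical gene. Much larger ones also went without a call, such as Pxdn at 3.70 (SE 0.92). The 1 gene, Mir6975, was below the filter of the fit within K36M and was not tested there. It had a mean of 0.310 TPM in K36M FGOs, 7.21 to 20.1 TPM in control FGOs and 0 in every embryo (adjusted p = 0.0444), and the call was kept without K36M FGO library 1 (adjusted p = 0.0389) or control FGO library 3 (0.0147) and lost without any other 1 of the 21 libraries (0.0699 to 0.458).

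The genes with the smallest unadjusted p in either direction are named for that rank, and apart from Mir6975 each had an adjusted p of 1.0. Gm30790, a long non-coding RNA, came after Mir6975 among the larger differences. It had 0.101 to 0.829 TPM in K36M FGOs and 5.11 to 6.94 TPM in control FGOs (interaction 2.45, unadjusted p = 0.00016). Pxdn (chr12:29936642-30017658), a peroxidase that crosslinks basement membrane collagen, came next and had 0.652, 0.162 and 1.17 TPM in K36M FGOs. The 8 K36M oocyte-derived embryos had 9.76, 43.8, 8.14, 20.9, 17.9, 9.88, 7.24 and 29.1 TPM, and the 7 control embryos 0 to 1.88 TPM. Pxdn rose in K36M by 3.34 (SE 0.72, adjusted p = 0.00397), and the interaction was 3.70 (SE 0.92, unadjusted p = 0.00056). Surf1, an assembly factor of cytochrome c oxidase, had 62.4 to 69.9 TPM in K36M FGOs and 0 to 3.85 TPM in the embryos, where control embryos had 5.10 to 36.5 TPM (interaction, unadjusted p = 0.00115). Cmtm8, a membrane protein, had 107.7 to 165.6 TPM in K36M FGOs and 0 to 9.79 TPM in embryos, where control embryos had 13.2 to 127.5 TPM (unadjusted p = 0.0023). Hs3st6, a heparan sulfate sulfotransferase, was listed at 0 in K36M embryos except 1 at 6.45 TPM and had 11.3 to 63.4 TPM in control embryos (unadjusted p = 0.00021). Bhlhe23, a basic helix-loop-helix factor, had 0 to 5.34 TPM in K36M embryos and 6.25 to 86.7 TPM in control embryos (unadjusted p = 0.00142). The others named for rank were Gm36536 and Rprl2, with interactions of 2.93 and 4.29 (unadjusted p = 0.00181 and 0.00279), and 2900093K20Rik, with -5.27 (unadjusted p = 0.00163). Cdo1, a cysteine dioxygenase, is given because the study names it and not for its rank. It had 108.5, 75.5 and 101.9 TPM in K36M FGOs and 2.24 to 110.3 TPM (median 29.8) in embryos (adjusted p = 0.138, and 0.0113 and 0.00693 with weights for each library or stage). In control it had a mean of 246.6 TPM in FGOs and 22.7 to 366.6 TPM in embryos, and the interaction was -0.32 (SE 1.24, unadjusted p = 0.802).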

How the data were processed

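Strand-specific RNA-seq libraries of K36M FGOs and K36M oocyte-derived two-cell embryos were compared, with control libraries for the interaction. The authors trimmed the reads with Trim Galore! (including the first 3 bases of Read 2), mapped them to mm10 with Hisat2 2.2.0, removed rRNA reads with BEDTools, counted genes with featureCounts and deposited TPM values for 26214 genes. The gene annotation, gene lengths and strand setting behind these values are not given in the sources used here, so overlapping and antisense genes are uncertain. All 22 columns were matched to a sample by name, and 0 were left unmapped. TPM keeps no depth, and the total reads that the study lists for each library do not give counts per gene, so no count test was run and no interval that needs reads is given.

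For each comparison, limma 3.58.1 (R 4.3.3) was run on log2(TPM + 1), using lmFit and then eBayes with its trend option, over genes whose stage means averaged at least 1 TPM. The interaction fit also held 3 control FGO libraries and 7 control embryos, without control embryo 4, which the study left out. Single values were compared by two-sided exact permutation. The script was tested on simulated data. Gene positions and promoters came from RefSeq on GRCm38.p6, in which 99.85% of the genes were matched. Tables and figures were made in Python 3.11.15 with pandas 2.3.3, numpy 2.4.6 and matplotlib 3.10.9.

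The libraries and the gene lists were chosen with earlier results of these data known. Genes were named by rule: those the study names, the most abundant members and largest changes of each list with the members against its majority, the 12 largest changes per direction without overlap, the 10 most abundant per stage, the 5 smallest interaction p per direction and the 5 most variable per direction among embryos. The markers of both stages were named as well. Of these, the genes that describe each group are printed. Nlrp5 and Ooep, Cpeb1, Tet3, Dux, Zscan4a, Tdpoz4, Trim43a, Klf4, Gabpa, Dppa4, Nop2, Rrp9, Fbl, Eif4g1, Cdc45, Suclg1 and Mt1, and the called members of short lists that the rule did not name (Tbpl2, Cnot6l, Kdm5a, Kdm6a, Kdm6b, Setdb1, Kmt2c, Cabin1, Obox7, Hk1, Hspa1b and Hspa2), were chosen after their values were seen. So were the genes whose upstream sequence is printed. Tried as alternatives were all genes above 0, a pseudocount of 0.1, a mean of at least 5 TPM, a mean of at least 1 TPM over libraries, median-of-ratios scaling, quantile normalization, eBayes without the trend, weights per library or per stage, the replicate number as a block, control embryo 4 added and each library left out. Allele-specific, methylation and chromatin data were not analysed here.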

Additional observations from a re-analysis of the deposited data

Results flagged for a closer look

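Of 171 values checked, 20 had 1 embryo of the 8 whose gap to its neighbour, as a share of the range of the 8 on the log2(TPM + 1) scale, was above Dixon's 95% critical value for 8 samples. Chance flags about 1 in 20 groups, a share that does not apply to genes chosen for their variation: Zfp239, Mir7657, Mir7672 and Psmb3 were named for varying most among embryos, and in Suclg1, Mir7035 and Mir7672 the other 7 embryos were listed at 0 (gap share 1.0). Of the 20, 7 were in embryo 8, 4 in embryo 1 and 0 in embryo 6. Embryo 8 was the lowest for Zscan4d (5.86 TPM, gap share 0.635), Usp17lc (0 TPM, 0.704), Mt1 (89.8 TPM, 0.799) and Sf3b3 (5.66 TPM, 0.535), and the highest for Psma5 (24.0 TPM, 0.743), Mir7035 (41.5 TPM, 1.0) and Zfp239 (225 TPM, 0.622). It also had the lowest median of the two-cell markers and the lowest median correlation with the other embryos (Spearman 0.715).

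Embryo 1 was the lowest for Cdc45 (71.4 TPM, 0.655), Elobl (24.5 TPM, 0.548) and Setdb1 (10.2 TPM, 0.712) and the highest for Ldhb (465 TPM, 0.585). Embryo 5 was the lowest for Tcstv1 (2.73 TPM, 0.553), Obox6 (182 TPM, 0.55) and Rprl2 (96.5 TPM, 0.719). Embryo 2 was the highest for Cenpm (21.7 TPM, 0.537) and Mir7672 (496 TPM, 1.0), and embryo 3 was the lowest for Gm11517 (349 TPM, 0.615) and the highest for Mir7657 (818 TPM, 0.702). Embryo 4 was the highest for Psmb3 (174 TPM, 0.75) and embryo 7 for Suclg1 (1.12 TPM, 1.0), which was listed at 0 in the other embryos. Mir6975 was the 1 gene whose transition differed between K36M and control by the interaction test (adjusted p = 0.0444).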

How the results depend on the processing

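The genes that rose and fell, 1671 and 2822, numbered 3281 and 5175 with a weight estimated for each library, 3045 and 5210 with a weight for each stage and 1039 and 1664 with the replicate number as a block. With 1 library left out they ranged from 1140 to 1778 and from 1522 to 2918, the lowest values all without 1 FGO library. Same-numbered FGO and two-cell libraries deviated together with correlations of 0.023, 0.0126 and -0.0102, and not every library correlated best with its own number, so the numbers do not pair the libraries. The interaction, 1 gene in the main fit, gave 0 with a pseudocount of 0.1, 0 with a mean of at least 5 TPM, 0 with a mean of at least 1 TPM over libraries, 0 with the replicate block, 13 over all genes above 0, 12 with library weights and 3 with a weight for each stage, and 0 to 3 with 1 library left out. Leaving out control libraries was chosen after seeing the data. With 1 library left out, the exact p was 0.0333 to 0.178 for H3f3b, 0.0333 to 0.111 for genes at 1 TPM or more and 0.7 to 0.956 for the share of the 10 most abundant genes, whose direction turned without embryo 1 (p = 0.7) or embryo 8 (p = 0.892). Nsd2, at -0.036, turned to 0.06 after quantile normalization, 0.035 without FGO library 2, 0.054 without embryo 2 and 0.064 without embryo 5 (range -0.11 to 0.064 with 1 library left out), and C86187, at -0.54, to 0.12 with the block. Of 157 named genes called, 121 kept the call in every alternative but the block, 97 also with the block, and 36 lost it with 1 library left out, and of 12 not called, 10 passed under at least 1 alternative. Of the named calls, 12 were lost without the mean-variance trend (Dppa3, Khdc1b, Foxo3, Cnot6l, Setdb1, Kmt2c, Cabin1, Obox7, Eif3d, Sf3b3, Psmd7 and Hspa8, adjusted p = 0.0577 to 0.247), 10 over all genes above 0 (Rpl17, Zfp239, Snord55, Psmb3, Cep44, Cnot6l, Setdb1, Obox7, Eif3d and Sf3b3, 0.0506 to 0.0732), 9 with a pseudocount of 0.1 (Rpl17, Psmb3, Cep44, Setdb1, Obox7, Eif1ax, Eif3d, Sf3b3 and Orc5, 0.0513 to 0.0751), 5 after quantile normalization (Btg4, Dppa3, Khdc1b, Kmt2c and Cabin1, 0.065 to 0.344), 3 with a mean of at least 1 TPM over libraries (Dnmt3a, Kmt2c and Cabin1, 0.0508 to 0.0534) and 2 under median-of-ratios scaling (Kmt2c and Cabin1, 0.15 and 0.106). Calls were gained by 9 named genes with library weights (Dnmt3l, H3f3b, Nsd1, Dux, Tcstv1, Tcstv3, Pou5f1, C86187 and Cdo1, 0.000523 to 0.0429) and by 9 with stage weights (2900093K20Rik in place of Tcstv1, 0.00184 to 0.0499). The cause was not tested, except that leaving out a library leaves fewer samples. TPM does not give the reads behind a gene's value, and embryos were sequenced less deeply than FGOs, so no limit is set on a value of 0 in a single embryo.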

Other observations

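Classes of RNA differed in how their tested genes moved. Of 94 small nucleolar RNAs, which guide the modification of rRNA and lie mostly in introns of other genes, 20.2% rose and 3.19% fell (median log2 difference 2.27 in K36M and 2.35 in control), beside 10.8% and 17.1% of 14492 protein-coding genes. Of 318 microRNA genes 1.57% rose and 24.5% fell, of 1327 long non-coding RNAs 3.24% and 17.2%, and of 185 transcribed pseudogenes 12.4% and 16.8%. Short genes have variable TPM values, and many lie inside other genes whose reads they can share. By chromosome, the share that rose reached 13.5% on chromosome 11 and the share that fell 21.8% on chromosome 6.

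Control embryo 4, which the study did not use, stood apart from the embryos of both groups. Its median log2(TPM + 1) over the 8 two-cell markers was 0.72, with 4 of the 8 listed at 0, where the other control embryos had 5.31 to 7.78 and the K36M oocyte-derived embryos 4.41 to 7.96. Its oocyte marker median of 7.41 lay within the range of the other embryos, and its 10 most abundant genes held 7.44% of TPM, against 3.37% to 6.02% in K36M oocyte-derived embryos.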
